A study of Mus musculus with 2 samples.

Results

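Neto2, Caprin2, Baiap2, Chrnb2, Mllt11 and Ndrg1, 6 genes of which most are known from the nervous system, were among the 15 genes with the highest signal in Taf7 knockout relative to Taf7 heterozygous CD4 T cells of the mouse spleen. They were chosen by that difference from 10457 genes whose mean log2 signal over both arrays was 7.71 or more, out of 19938 genes with 1 symbol in the probe table. The 6 differences are therefore a description of the choice, and no test was made of them. The knockout sample came from mice in which a Cre transgene named 8EIII-cre acted on a floxed Taf7 allele opposite a null allele. The heterozygous sample had these alleles but no Cre, so 1 Taf7 copy was left intact and neither sample is wild type. The mice were of mixed C57/BL6 and 129 background; their age, the number pooled per array and the promoter that drives Cre are not given in the labels. Both samples were sorted on high CD4 and T cell receptor beta and were rich in cells with little surface CD44, a protein of activated and memory T cells. Each genotype had 1 array, so no value has an error and no difference a replicate check.

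Taf7 encodes a subunit of TFIID, the general factor that binds core promoters and helps to position RNA polymerase II. The 6 genes belong to no common pathway. Neto2 and Chrnb2 encode parts of transmitter-gated ion channels, Baiap2 an adaptor that shapes actin-rich protrusions and dendritic spines, Caprin2 an RNA-binding protein, and Mllt11 a small protein that was found as a fusion partner of MLL in leukaemia. Ndrg1 is a stress- and hypoxia-responsive gene whose loss causes a neuropathy through myelinating Schwann cells, so that "neuronal" describes it less well than the others.

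Of the receptor genes, Neto2, an auxiliary subunit of kainate-type glutamate receptors, had a log2 signal of 8.73 in the knockout and 7.51 in the heterozygote. The difference of 1.23, or 2.34-fold, was the largest of all genes above the filter. The heterozygous value lay below the filter value of 7.71, so the fold rests on a low signal. Chrnb2, the beta 2 subunit of neuronal nicotinic acetylcholine receptors, had log2 signals of 9.52 in the knockout and 8.69 in the heterozygote. It was 1.78-fold higher in the knockout, with both values above the filter value.

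Baiap2, also called IRSp53, links the GTPases Rac and Cdc42 to actin assembly and is abundant at excitatory synapses. Its log2 signal was 10.30 in the knockout and 9.31 in the heterozygote, a difference of 0.99 or 1.98-fold. Caprin2, a paralog of the cell-cycle and stress-granule protein Caprin1 that is found in neuronal RNA granules and in Wnt signalling, had 9.38 in the knockout and 8.21 in the heterozygote. It was 2.24-fold higher, and Caprin2 and Neto2 were the 2 of the 6 genes past 2-fold.

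Mllt11, a cofactor of the T cell factor TCF7 that is also expressed in developing neurons, had log2 signals of 8.38 in the knockout and 7.62 in the heterozygote. The heterozygous value was again below the filter value, and the difference of 0.76 was the smallest of the 6. Ndrg1 had 10.88 in the knockout and 10.09 in the heterozygote, a difference of 0.79 or 1.73-fold. Ndrg1 is also known in T cells, where it is a factor of clonal anergy in the mouse.

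**Figure D1:**
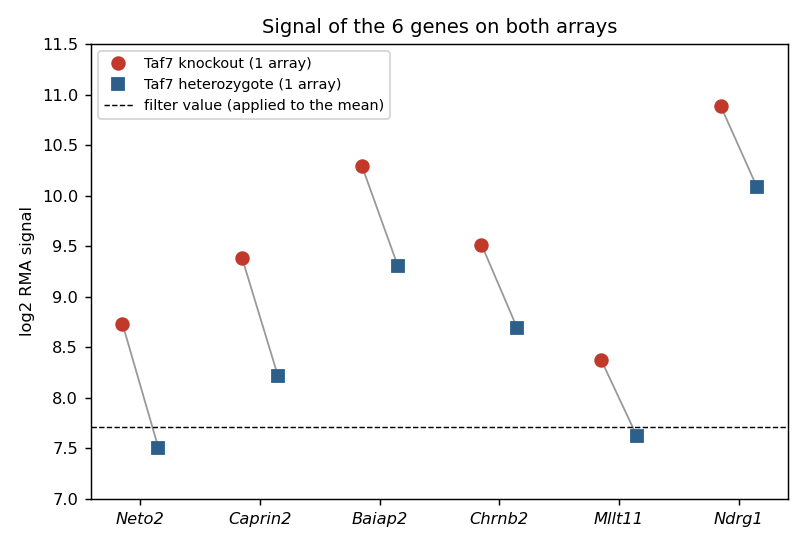
Log2 RMA signal of the 6 genes on the knockout array (red circles, left) and the heterozygous array (blue squares, right), 1 array each and therefore without error bars; the dashed line is the filter value of 7.71. All 6 knockout values lie above the line, and the heterozygous values of Neto2 and Mllt11 lie below it.

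The difference of all 6 genes was 1.5-fold or more, a size reached by 0.449% of the genes above the filter. The 2 genes past 2-fold stand beside 0.0383% of the genes above the filter. Nothing is read from these counts, since the same contrast chose the genes. The median of the 6 differences was 0.91, against -0.05 over the 10457 genes above the filter. The differences of genes near in mean signal give a scale in the absence of replicates. Among the 500 genes closest to Neto2 in mean, the central 95% of differences lay between -0.74 and 0.53. Around Caprin2 it lay between -0.75 and 0.37, and around Ndrg1, where signals were stronger, between -0.52 and 0.22. The 6 genes lay above the upper end of their own range, as their choice made likely.

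**Figure D2:**
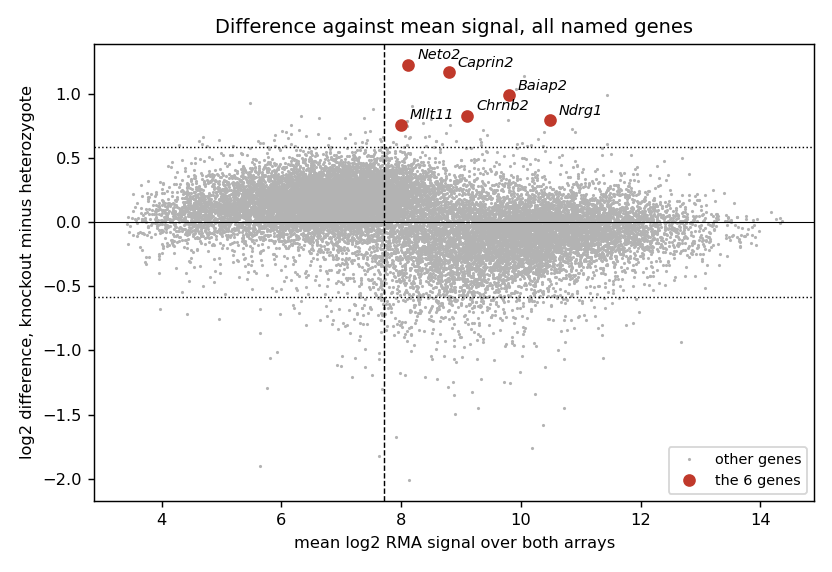
Log2 difference, knockout minus heterozygote, against the mean log2 signal of both arrays for 19938 genes (grey), with the 6 genes in red; the dashed line is the filter value of 7.71 and the dotted lines mark 1.5-fold. The grey cloud lies above 0 at low signal, with a median of 0.14 below the filter, and slightly below 0 at higher signal, with a median of -0.05.

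The limit of 15 genes cut through a continuous run of differences. Mllt11 was at rank 14 and Ms4a6d, an MS4A family gene and no member, at rank 15 with 0.76. Just outside stood Gm1604a at 0.75 and Amigo2, an adhesion protein that promotes neuronal survival, at 0.73. Amigo2 had a log2 signal of 11.21 in the knockout and 10.49 in the heterozygote. Vamp1, a vesicle protein of synapses named here after its value was seen, was at rank 19 with 0.70, so the rank limit and not a gap left out further genes known from neurons. The other 9 of the 15 genes were the histone gene H2bc4, the P-TEFb inhibitor Hexim1, Ms4a6c, the p53 target Phlda3, Cfap74, the microRNA gene Mir505, the PI3-kinase subunit Pik3r3, Zfp619 and Ms4a6d.

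**Figure D3:**
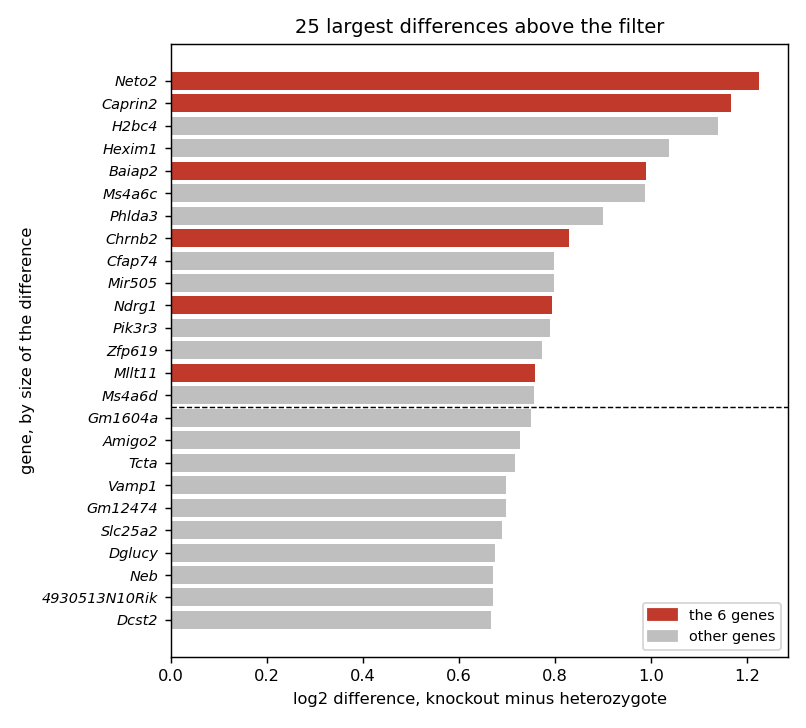
Log2 difference, knockout minus heterozygote, of the 25 genes with the largest values above the filter, with the 6 genes in red and the others in grey; the dashed line is the limit of 15. The bars decline gradually across the limit, with 0.76 at rank 15 and 0.75 at rank 16.

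The array values of the 6 genes each came from 1 transcript cluster, and no cluster with several symbols named any of them, so no second cluster gives a check. Upstream sequence was available for 5 of the 6 genes in a RefSeq promoter table of build GRCm38.p6; Ndrg1 was not in it. The 120 bases before the start are shown because TFIID binds core promoters, with capitals for the letters TATAAA, the core of the TATA box, for GGGCGG or its complement CCGCCC, the GC box, and for CCGGAA, a core letter run of ETS factor sites. The windows are Neto2 at chr8:85700925-85701044 (minus strand), Caprin2 at chr6:148896238-148896357 (minus strand), Baiap2 at chr11:119942972-119943091 (plus strand), Chrnb2 at chr3:89764633-89764752 (minus strand) and Mllt11 at chr3:95228678-95228797 (minus strand).
Neto2: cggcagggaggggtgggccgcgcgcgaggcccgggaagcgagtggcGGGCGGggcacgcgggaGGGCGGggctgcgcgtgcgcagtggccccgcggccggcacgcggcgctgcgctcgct
Caprin2: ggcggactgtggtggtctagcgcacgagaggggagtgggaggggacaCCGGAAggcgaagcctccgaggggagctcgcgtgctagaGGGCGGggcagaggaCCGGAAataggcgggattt
Baiap2: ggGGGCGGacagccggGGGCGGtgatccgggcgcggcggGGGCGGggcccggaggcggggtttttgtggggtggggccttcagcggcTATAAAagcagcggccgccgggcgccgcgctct
Chrnb2: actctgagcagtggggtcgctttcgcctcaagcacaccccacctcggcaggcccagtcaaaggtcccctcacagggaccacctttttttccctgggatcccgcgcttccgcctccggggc
Mllt11: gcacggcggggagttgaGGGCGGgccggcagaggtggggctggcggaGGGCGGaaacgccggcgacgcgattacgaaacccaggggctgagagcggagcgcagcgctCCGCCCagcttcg

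The letters TATAAA were found in Baiap2 alone of these windows, beginning 33 bases before the start on the gene strand. The starts are those listed with the RefSeq promoters. Only that of Chrnb2 is also an end of the gene in the reference gene order. In all 32851 promoters of the table, 2.31% hold TATAAA within 40 bases of the start on the gene strand, and 12.4% hold it on either strand within 250 bases. GGGCGG on either strand within 250 bases was in 4 of the 6 windows of these genes, counting both starts listed for Neto2, against 32.7% of all promoters. Baiap2 and Mllt11 held 5 copies each, and Neto2 and Caprin2 2 each. CCAAT, the letters of the CCAAT box, was in 2 of the 6 windows, against 33.8% of all promoters. CCGGAA, which was added after the sequences were seen, occurred 4 times within the 250 bases of Caprin2 and in no other window. Of all promoters, 12.0% had at least 1 copy. The GC content of the 250 bases was between 59.6% in Chrnb2 and 78% in Mllt11, apart from 42.4% at the other start of Neto2, and the median of all promoters was 52.4%. No share was taken among promoters of like GC content, so nothing is read from the count for GGGCGG. These matches describe letters only; no binding was measured.

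The close relatives of the 6 genes did not have differences of the same size, as the choice of the 6 by size made likely. Among 16 nicotinic receptor subunits, Chrnb2 was the one with a mean above the filter. Chrnb4 had log2 signals of 7.95 in the knockout and 7.44 in the heterozygote, a difference of 0.50, and Chrna4, the usual partner of the beta 2 subunit in brain, had 7.77 in the knockout and 7.39 in the heterozygote, a difference of 0.38. Chrna7, a subunit known in immune cells, was at 0.18. Without Chrnb2, 13 of 15 subunits had a difference above 0, with a median of 0.13. That is close to the general level at low signal, where 82.5% of genes below the filter were above 0 and the median was 0.14. Of the 9 modulators of nicotinic receptors on the list, 2 were at least 1.5-fold lower in the knockout, the Ly6-type proteins Lypd6b (8.52 in the knockout and 9.84 in the heterozygote, a difference of -1.32) and Lynx1 (7.82 in the knockout and 8.52 in the heterozygote, a difference of -0.69). A difference of that size in this direction was found for 3.17% of the genes above the filter. The chaperones Ric3 at 0.11 and Tmem35a at 0.09, both below the filter, differed little.

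Kainate receptor genes showed no counterpart of Neto2, whose difference was the largest of all genes above the filter. Its paralog Neto1 had log2 signals of 5.93 in the knockout and 5.83 in the heterozygote. Of the channel subunits, Grik5 passed the filter, with 8.78 in the knockout and 8.95 in the heterozygote, a difference of -0.17. Grik3 at 0.28, Grik4 at 0.27, Grik1 at 0.03 and Grik2 at 0.03 were below the filter.

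In the I-BAR family of membrane-bending proteins, Mtss2 was at 0.26, Mtss1 at 0.10, Baiap2l1 at 0.03 and Baiap2l2 at -0.02, against 0.99 for Baiap2. Baiap2l1 had 14.35 in the knockout and 14.32 in the heterozygote, near the highest signal on either array, 14.56; whether its cluster measures that gene alone was not tested. Of 20 measured partners of Baiap2 in actin remodelling, 15 were above the filter and none of these differed by 1.5-fold. Of all genes above the filter, 0.449% did so upwards and 3.17% downwards. The Rac and Cdc42 genes and the WAVE complex of lymphocytes were close to 0, with Rac2 at 0.01, Rac1 at -0.02, Cdc42 at -0.17, Wasf2 at 0.08, Nckap1l at 0.08 and Cyfip2 at 0.06. Nckap1, the WAVE complex subunit used outside blood cells, was the exception below the filter, with 7.30 in the knockout and 8.02 in the heterozygote. Among 14 postsynaptic scaffolds, some of which bind Baiap2, Shank2 at 0.42 and Dlgap1 at 0.35 were the highest. Both genes have more than 1 cluster, and with their clusters averaged Shank2 was at 0.30 and Dlgap1 at 0.31. Dlg4, which encodes PSD-95, lay in the opposite direction to Baiap2, with 9.56 in the knockout and 10.52 in the heterozygote, 1.95-fold lower.

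Caprin1, the paralog of Caprin2, had log2 signals of 11.82 in the knockout and 11.88 in the heterozygote. Of the 12 Caprin and RNA granule genes above the filter other than Caprin2, Caprin1 among them, 6 had a difference above 0. That is near the 40.9% of all genes above the filter. None of the 12 differed by 1.5-fold, as few genes did. G3bp1, the stress granule nucleator that binds Caprin1, was the highest at 0.27, and Usp10, another binding partner of G3bp1, the lowest at -0.48. None of the 19 measured genes of the Wnt receptor and TCF pathway, in which Caprin2 and Mllt11 have both been placed, differed by 1.5-fold. Few genes did, 0.449% upwards and 3.17% downwards above the filter, so this count says little of the pathway. The differences of these 19 genes ran from 0.26 for Tcf7l1 to -0.36 for Gsk3b. Lrp6, the co-receptor that binds Caprin2, was at -0.06, Ctnnb1, which encodes beta-catenin, at 0.16 and Lef1 at 0.06. Tcf7 was not among the genes with 1 symbol and is not analysed here. Of the other MLL partner genes, Kmt2a, which encodes MLL itself, was the highest at 0.48 and Ell2 the lowest at -0.24, and their median without Mllt11 was -0.02.

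The NDRG family was divided. Ndrg3 had 12.02 in the knockout and 11.94 in the heterozygote, Ndrg4, below the filter, was at 0.21, and Ndrg2 had 10.41 in the knockout and 10.80 in the heterozygote, a difference of -0.39. Hypoxia response genes, a group to which Ndrg1 belongs, went both ways. Without Ndrg1, 4 of 19 above the filter had a difference above 0, against 40.9% of all genes above the filter, and 6 of 7 below it did, against 82.5% of all genes below the filter. The median of these 26 genes was -0.05. Ddit4, an inhibitor of mTORC1 that also answers to other stresses, was next at 0.43, followed by P4ha2 at 0.29, and Hk2 was at 0.28. Epas1, which encodes HIF-2 alpha, was the lowest, with 8.81 in the knockout and 9.73 in the heterozygote, 1.89-fold lower. Pfkfb4 at -0.58 and Egln3 at -0.48, both induced by HIF, followed.

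**Figure D4:**
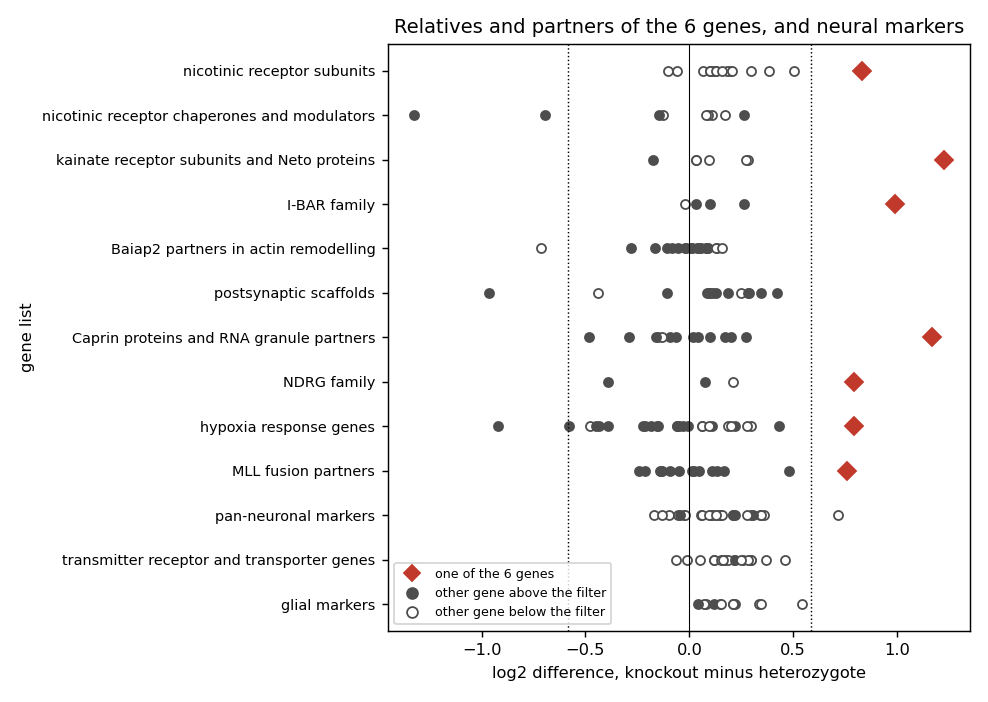
Log2 difference, knockout minus heterozygote, of each measured gene in 13 lists, with the 6 genes as red diamonds, other genes above the filter as filled circles and those below it as open circles; dotted lines mark 1.5-fold. Each diamond stands to the right of every other gene of its list, a position that the choice of the 6 genes favours, and Lypd6b, Dlg4 and Epas1 stand furthest to the left.

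Genes that define neurons were mostly not measured above the filter, below which 9481 of all 19938 genes lay. Of 27 pan-neuronal markers, 22 were below it, among them Rbfox3 (7.41 in the knockout and 7.07 in the heterozygote), Map2 (6.71 in the knockout and 6.81 in the heterozygote), Tubb3 (6.52 in the knockout and 6.69 in the heterozygote) and Snap25 (6.65 in the knockout and 6.55 in the heterozygote). Elavl4, a neuronal RNA-binding protein, had the largest difference of that list, 0.72, but at signals of 6.66 in the knockout and 5.95 in the heterozygote. The lists of pan-neuronal markers, transmitter genes, postsynaptic scaffolds, nicotinic subunits and kainate receptor genes held 80 genes other than the members, of which 16 were above the filter. None of these 16 passed 1.5-fold upwards, against 0.449% of all genes above the filter, and 1, Dlg4, passed it downwards, against 3.17%. The median of the 16 was 0.20, and 12 of 16 had a difference above 0, against 40.9% of all genes above the filter. That share is over all signal levels. Stmn3, Syn2, Snap91, Gad1 and Dlgap2, all above 0, had means from 7.75 to 7.86, just over the filter value. Below that value the median of all genes was 0.14. Nefh, Shank2, Homer1, Homer3, Dlgap1, Dlgap3 and Dlgap4, also above 0, had higher means, from 8.18 to 9.69. Stx1a, Grik5, Dlg1 and Dlg4 were below 0. Whether the 16 differ from genes of like signal was not tested, so no neuronal rise is read from the 12 of 16. With the nicotinic modulators counted too, 13 of 20 were above 0 and 3 were at least 1.5-fold lower, Lypd6b, Lynx1 and Dlg4. Of the 64 below the filter 53 were above 0, or 82.8%, against 82.5% of all genes below it. Glial markers were above 0 in 12 of 12 measured, with a median of 0.18 and Pmp22, a myelin gene, the highest at 0.54. Of the 12, 9 were below the filter, where 82.5% of all genes were above 0 and the median was 0.14.

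Components of the REST complex, which represses neuronal genes outside the nervous system, were measured as well. Rest had a log2 signal of 10.19 in the knockout and 10.51 in the heterozygote, a difference of -0.32, and its corepressor Rcor3 was the lowest of the list at -0.51. Rcor1 at 0.17, Kdm1a at 0.11 and Sin3b at 0.21 lay on the other side of 0. Of the 14 above the filter, 10 were below 0, against 59.1% of all genes above the filter. None of the 15 measured differed by 1.5-fold, as few genes did, 0.449% upwards and 3.17% downwards above the filter.

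Taf7 had 7.79 in the knockout and 8.34 in the heterozygote, a difference of -0.55. That is short of 1.5-fold and inside the central 95% range of genes of similar signal, from -0.70 to 0.54, so these arrays do not set the targeted gene apart from such genes. Whether the Taf7 cluster lies in the part that Cre removes is not stated in the labels. The T cell identity of both samples was plain, with all 14 measured T cell markers above the filter and signals between 11.06 and 13.50 in the knockout and between 11.56 and 13.54 in the heterozygote. Thy1, a surface protein of both T cells and neurons, was the one marker past 1.5-fold, with 12.21 in the knockout and 13.14 in the heterozygote. B cell markers passed the filter in 1 of 9 and myeloid markers in 1 of 16, against 10457 of all 19938 genes. B cell markers had a mean signal of 6.81 in the knockout and 6.64 in the heterozygote. Myeloid markers had a mean signal of 6.85 in the knockout and 6.84 in the heterozygote. The myeloid markers went both ways, with S100a9 at 0.31 and Spi1 at 0.22, but Fcgr3 at -0.44 and the integrin gene Itgam at -0.79, all below the filter. The mean signal was 5.67 in the knockout and 5.64 in the heterozygote for natural killer cell markers, 7.53 in the knockout and 7.33 in the heterozygote for erythroid markers and 7.63 in the knockout and 7.58 in the heterozygote for platelet markers. Of the platelet markers, Itgb3 was 1.52-fold lower, with 10.87 in the knockout and 11.48 in the heterozygote, and the other 4 had differences above 0. For stromal and endothelial markers the mean signal was 7.66 in the knockout and 7.57 in the heterozygote. Of these 9 markers, 7 had a difference above 0, whereas Pecam1 had 11.27 in the knockout and 11.82 in the heterozygote. Of 6 natural killer cell markers, 2 were above 0, and Nkg7, the 1 above the filter, was at -0.41. Of the CD8 T cell markers, Cd8a was below the filter with 7.65 in the knockout and 7.63 in the heterozygote, whereas Cd8b1 was above it with 10.24 in the knockout and 10.50 in the heterozygote, although both samples were sorted on CD4. The part of other cells in the differences of the 6 genes was not tested, and in these bulk samples fewer cells of a type and less RNA per cell cannot be told apart.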

How the data were processed

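Total RNA was hybridised to Affymetrix arrays. Deposited are gene-level log2 signals, which the authors made with RMA in Affymetrix Expression Console version 1.1, keeping the core gene set, per the series design text. An exon array is named there, but the probe table fits a gene-level whole transcript array. The array's build is not stated.

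No further normalization was applied. Of 35556 rows, 21789 had 1 gene symbol, and the cluster of highest mean stood for a gene. Genes passed the filter with a mean of 7.71 or more, the 50th percentile of the rows. Differences are log2, knockout minus heterozygote. Fixed sizes of 1.5-fold and 2-fold replaced tests, and the number of arrays, 2, limits precision. Named are the members, Taf7, genes around rank 15, family members, the ends of the lists, neighbours in gene order and genes nearest in signal. Any other gene used as an example was chosen after its values were seen. The members and the 23 lists were chosen with earlier results of these data known. The 8 alternatives were centring, loess (span 0.3), quantile normalization, 3 other filters and 2 rules for clusters. The counting was tested on simulated data. Tables were handled with pandas 2.3.3 and numpy 2.4.6 in Python 3.11.15, loess came from statsmodels 0.14.6, and figures from matplotlib 3.10.9.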

Additional observations from a re-analysis of the deposited data

How the results depend on the processing

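The differences of the 6 genes kept their direction and stayed past 1.5-fold under centring, loess, quantile normalization and both cluster rules. They ranged from 1.15 to 1.27 for Neto2, 1.17 to 1.22 for Caprin2, 0.99 to 1.09 for Baiap2, 0.83 to 0.91 for Chrnb2, 0.65 to 0.81 for Mllt11 and 0.79 to 0.88 for Ndrg1. The cluster rules could not move them, since each has 1 cluster. Baiap2 passed 2-fold, making 3 genes, under centring, loess and quantile normalization. A filter at the 75th percentile admits fewer genes: 2 of the 6 were counted at 1.5-fold and 0 at 2-fold, and of all genes 16 at 1.5-fold and 2 at 2-fold. All genes at least 1.5-fold higher numbered 71 after centring and 91 with no filter, against 47. Removal of the loess trend moved the medians of nicotinic subunits to -0.0169, pan-neuronal markers to -0.0189, transmitter genes to 0.0388 and myeloid markers to -0.0805, beyond the robust SD of genes of similar signal, because the trend is positive at low signal. Other list medians, 111 values, moved less than that SD. Of the values of single genes, 1483 moved less and 92 more, and none past 1.5-fold changed sign. Low signal limits Neto2 and Mllt11, whose heterozygous values lie below the filter value. The filter value is the 50th percentile of the rows and no detection limit. Detection above background was not tested for any of the 6 genes. No paired analysis was possible because there is 1 array per genotype, and for the same reason no array could be left out.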

Other observations

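The genes next to the 6 on their chromosomes, taken from the reference gene order, had differences between -0.19 and 0.37. Of the 11 nearest measured neighbours above the filter, 5 were above 0, near the 40.9% of all genes above the filter. None of all 12 neighbours differed by 1.5-fold, a size that few genes reach, 0.449% upwards and 3.17% downwards, so this count says little of the neighbours. Their median was -0.01. The highest was 4632404H12Rik beside Chrnb2, at 0.37, whereas Adar on its other side was at 0.08. Itfg1 beside Neto2 was the lowest at -0.19, with Dnaja2 on its other side at -0.10. Ipo8 and Sinhcaf beside Caprin2 were at -0.08 and -0.03, and Chmp6 and Aatk, a kinase known from neurons, beside Baiap2 at 0.02 and 0.16. Gabpb2 and Cdc42se1 beside Mllt11 were at -0.14 and 0.00, and St3gal1 and Ccn4 beside Ndrg1 at -0.14 and 0.28, the last of these below the filter.

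The genes most like each of the 6 were taken by the distance between their pairs of log2 signals over the 2 arrays. For Chrnb2 they were the olfactory receptor gene Olfr239 (distance 0.18, difference 0.58) and the hair keratin-associated gene Krtap5-3 (distance 0.21, difference 0.58), both of families known from tissues other than T cells. For Baiap2 they were Mir505 (0.14) and Hexim1 (0.17), for Neto2 Phlda3 (0.25) and Pik3r3 (0.31), and for Caprin2 Ms4a6d (0.29) and Slc25a2 (0.34). For Mllt11 they were 4930513N10Rik (0.12) and Lrrc51 (0.14), and for Ndrg1 Gm12474 (0.16) and A930005H10Rik (0.21). With 2 arrays such likeness describes these samples only.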
